A study of Mus musculus with 2 samples.

Results

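The genes of the primary cilium and of intraflagellar transport (IFT) were read out by total RNA-seq in neural tubes that were excised from B6NCrl mouse embryos at E11.5. The 44 genes were listed by symbol and not by a threshold on their levels, and all 44 were found among 43346 annotated genes in the files. They comprise 11 subunits of the IFT-B complex, 5 of IFT-A, 11 genes of the transition zone, 9 of the BBSome and its assembly, 1 heavy chain of the retrograde motor, and 7 regulators of the ciliary membrane and of Hedgehog signalling. The study has 1 group and no contrast of conditions: replicate 1 was pooled from 109 embryos and replicate 2 from 88 embryos, wild-type animals of both sexes with no treatment named, and each library was made from 10 ng of RNA longer than 200 bases with spike-in RNAs added. A pool averages over embryos and over every cell type of the excised tissue, so a lower level can come from fewer cells of a type or from less RNA per cell, which bulk samples cannot tell apart.

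The primary cilium is a single antenna that most vertebrate cells, neuroepithelial progenitors included, raise from the mother centriole. IFT-B, driven by kinesin, carries building material to the tip, and IFT-A with the dynein motor carries cargo back and helps membrane receptors to enter. The transition zone is the gate at the base, and the BBSome is a coat that moves membrane proteins out across it. In the neural tube, Sonic hedgehog patterns the ventral cells through Smoothened and the Gli factors, and in mice this signal runs through the cilium. Mouse mutants of many of the genes named here have altered neural tube patterning.

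The libraries held 27638068 expected counts in replicate 1 and 29166901 in replicate 2, of which the 44 genes took 35123 and 37683, or 0.135% and 0.136% of the counts of annotated genes. Markers of neural progenitors and of neurons were all present, 6 of 6 in each list, but so were all 5 of erythroid cells, 6 of 6 each of skeletal muscle, connective tissue and endothelium, and 4 of 4 each of neural crest and macrophages. The summed level of the 6 neuronal markers was 1640 TPM in replicate 1 and 1880 TPM in replicate 2, against 464 and 384 TPM for muscle and 643 and 577 TPM for connective tissue. The 5 erythroid markers, globin genes among them, summed to more, 8663 TPM in replicate 1 and 8728 TPM in replicate 2. RNA of cells other than those of the neural epithelium was therefore in both libraries, and which of these cells gave the ciliary RNA was not tested. TPM, the unit used here, scales reads to transcript length and library total and is a level per length, so it can be set side by side between genes.

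All 44 ciliary genes reached 1 TPM in both libraries, where 59.9% of protein-coding genes did. At 10 TPM in both libraries there were 34 of 44, against 39.7% of protein-coding genes. Their median level was 14.2 ± 0.697 TPM (SD, n = 2), compared with 19.9 ± 0.389 TPM for the protein-coding genes that passed 1 TPM in both libraries, and the range ran from 1.76 TPM for Gpr161 to 112 TPM for Ift46. The ciliary genes were thus all detected but, as a group, sat somewhat below the median of detected protein-coding genes. The order of the 44 levels was nearly the same in both libraries (Spearman's rho 0.977, a description over genes that share both libraries). Within the modules, 31 of 38 pairs of genes next to each other in order kept that order in both libraries.

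Over the subunits listed here, IFT-B was the highest of the modules, with a median of 42.2 ± 2.02 TPM (SD, n = 2) and all 11 subunits above 10 TPM in both libraries. Ift46, the highest, a core subunit encoded at chr9:44767908-44793447 on the plus strand (mm10, GENCODE M21 coordinates), had 111.21 TPM in replicate 1 and 112.52 TPM in replicate 2, from 1525 and 1526 expected counts. Ift27, a Rab-like GTPase that links IFT-B to the exit of BBSome cargo, had 84.8 and 90.12 TPM. Ift20, the subunit that also sits at the Golgi and sorts membrane proteins towards the cilium, had 85.35 and 79.15 TPM. Ift27 and Ift20 changed places between the libraries, so their order is not resolved. The lead of Ift46 rested on a coding entry of 229 bases, Ift46-209: without it Ift46 would have 78.42 and 75.29 TPM, below both Ift27 and Ift20 in each library. No entry was left out of Ift27 or Ift20 there. Over protein-coding transcripts, Ift46-209 among them, Ift46 had 98.85 and 103.99 TPM, Ift27 84.8 and 90.12 TPM, and Ift20 70.06 and 64.6 TPM. At the low end of IFT-B, Ift80 had 14.58 and 14.69 TPM. Ift88, the subunit disrupted in the Oak Ridge polycystic kidney mouse, had 13.44 and 14.61 TPM. Ift172, a large peripheral subunit that faces the kinesin side of the train, had 13.23 and 13.41 TPM. Highest and lowest of these 11 subunits differed 8.40-fold, and other IFT-B subunits, given further on, lay lower still. Between them lay Ift22, another Rab-like GTPase, at 59.8 ± 5.27 TPM, and Ift74 at 45.3 ± 0.0424 TPM, whose partner in binding tubulin, Ift81, was at 32.8 ± 1.27 TPM. The core subunit Ift52 was at 42.2 ± 2.02 TPM and Ift57, of the peripheral part, at 26.2 ± 1.63 TPM (SD, n = 2 for each).

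IFT-A had a median of 18.4 ± 2.52 TPM (SD, n = 2), and 1 of its 5 subunits listed here stood far above the others. Ift43, the smallest subunit, had 54.08 TPM in replicate 1 and 57.52 TPM in replicate 2. Ift122, of the core, had 18.37 and 24.15 TPM, and Ift140, also of the core, 16.62 and 20.19 TPM. Those 2 were the IFT-A genes that differed most between the pools, both lower in replicate 1. Wdr35, which is IFT121, had 16.33 and 17.16 TPM. Ttc21b, which is IFT139, had 13.64 and 12.08 TPM and was the only subunit of the 5 with the higher level in replicate 1. Without Ift43 the spread among the IFT-A subunits listed here was narrow, and the order of the 5 was the same in both libraries. Wdr19, an IFT-A subunit outside this set, lay below all 5, at 8 TPM in replicate 1 and 8.68 TPM in replicate 2.

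Dync2h1, the heavy chain of the dynein that powers retrograde transport, had 15.63 TPM in replicate 1 and 14.85 TPM in replicate 2, from 1814 and 1894 expected counts. Its level lay among those of the 4 lower IFT-A subunits listed here, of the complex it moves with.

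The transition zone had the lowest median of the modules, 9.59 ± 0.325 TPM (SD, n = 2), and only 5 of its 11 genes reached 10 TPM in both libraries. The highest were B9d1, with 31.68 TPM in replicate 1 and 36.41 TPM in replicate 2, and B9d2, with 20.32 and 23.56 TPM, which encode small B9-domain proteins of the MKS complex. Tctn2, a tectonic, had 19.85 and 20.45 TPM. These 3 stood apart from the rest of the 11 genes in both libraries, but some other transition zone genes, given further on, lay higher still. At the low end, Rpgrip1l, a scaffold at the gate, had 6.33 and 5.81 TPM. Tctn1, a tectonic on which the complex depends, had 3.10 and 3.55 TPM from only 96.79 and 135.42 expected counts. Cep290, which bridges microtubules and membrane at the gate and lies at chr10:100487558-100574840 on the plus strand, had 3.14 and 3.41 TPM, but from 431.70 and 483.98 expected counts because its RNA is long. Tctn1 and Cep290 changed places between the libraries. The others ran from the membrane proteins Tmem67 (meckelin), at 12.7 ± 1.77 TPM, and Tmem231, at 12.2 ± 0.0566 TPM, through the third B9-domain gene Mks1, at 9.42 ± 0.573 TPM, to the tectonic Tctn3, at 8.63 ± 1.04 TPM, and Cc2d2a, at 8.18 ± 1.12 TPM (SD, n = 2 for each). The 3 tectonic genes thus differed among themselves, with Tctn2 the highest and Tctn1 the lowest in both libraries.

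The BBSome and its assembly genes had a median of 12.9 ± 1.00 TPM (SD, n = 2), with 6 of 9 at 10 TPM in both libraries. Arl6, the GTPase that recruits the coat to membranes, was the highest, with 37.03 TPM in replicate 1 and 39.52 TPM in replicate 2. By mean level, next came the subunit genes Bbs4, with 13.69 and 17.13 TPM, and Bbs5, with 12.16 and 16.66 TPM. Bbs5 was below Bbs2 and Bbs7 in replicate 1 and above them in replicate 2, so the order of these subunits is not resolved. Bbs2 was at 13.7 ± 0.339 TPM, Bbs7 at 13.5 ± 0.163 TPM and Bbs9 at 12.1 ± 1.61 TPM (SD, n = 2 for each). Of the 6 subunit genes of the set, 5 lay within this band, and Bbs1 stood below it with 2.29 and 1.98 TPM from 218 and 195 expected counts. Bbs12 had 6.99 and 6.01 TPM and Bbs10 had 6.17 and 6.0 TPM. Those 2 encode chaperonin-like proteins that assemble the coat, and both lay between Bbs1 and the other subunit genes. Mkks, a gene of the same kind outside this set, was higher, at 30.05 TPM in replicate 1 and 32.08 TPM in replicate 2. Its protein-coding transcripts had 14.06 and 14.67 TPM of that.

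Among the membrane and Hedgehog regulators the median was 11.7 ± 1.05 TPM (SD, n = 2). Sufu, which holds Gli proteins inactive, had 34.25 TPM in replicate 1 and 34.14 TPM in replicate 2, from 2402 and 2496 expected counts. Inpp5e, the phosphoinositide phosphatase of the ciliary membrane, had 20.42 and 20.18 TPM. Tulp3, an adaptor that brings receptors into the cilium with IFT-A, had 14.43 and 13.80 TPM. The lower genes were close together except for the last. Evc, with 10.74 and 10.29 TPM, and Evc2, with 10.25 and 10.72 TPM, encode partners that act with Smoothened at the ciliary base, and they were at the same level within their spread. Arl13b, a GTPase of the ciliary membrane, was at 11.7 ± 1.05 TPM. Gpr161, a receptor that restrains Hedgehog signalling from the cilium and lies at chr1:165295789-165326745 on the plus strand, had 1.95 and 1.57 TPM, the lowest of all 44 genes in both libraries.

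**Figure D1:**
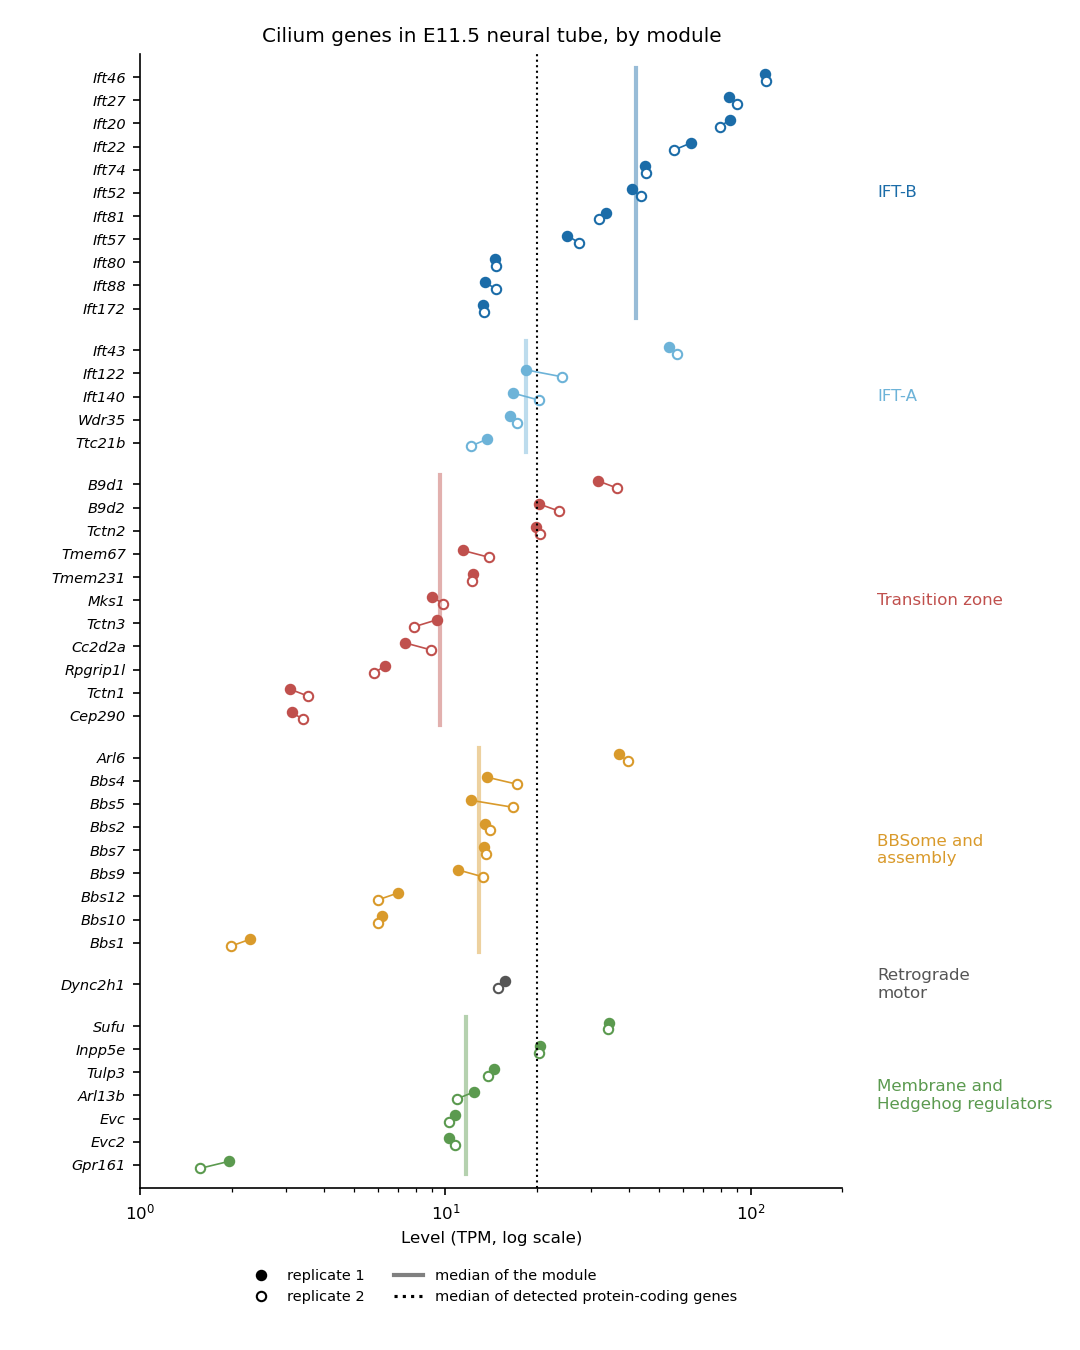
Level of each of the 44 genes in replicate 1 (filled) and replicate 2 (open), in TPM on a log scale, grouped by module; thick lines give the median of each module and the dotted line the median of detected protein-coding genes, 19.9 TPM. All 11 IFT-B genes lie above 10 TPM, whereas transition zone genes reach down to 3.28 TPM (Cep290).

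Set against each other, the 4 transport and gate modules kept 1 order in both libraries: IFT-B, then IFT-A, then the BBSome, then the transition zone. On the scale of the median of log2(TPM + 1), IFT-B minus the transition zone was 2.01 in replicate 1 and 2.04 in replicate 2, a mean difference of 2.03 ± 0.02 (SD, n = 2). IFT-B minus the BBSome was 1.64 ± 0.04 and IFT-B minus IFT-A was 1.16 ± 0.12. IFT-A minus the transition zone was 0.87 ± 0.14 and IFT-A minus the BBSome 0.48 ± 0.08. The transition zone minus the BBSome was -0.39 ± 0.06, the smallest of the 6 differences. With means of log2 values in place of medians, IFT-A minus the BBSome was 0.94 and the transition zone minus the BBSome -0.072, and over protein-coding transcripts alone the last was -0.65. Both libraries gave each difference the same sign, and each was larger than its SD. Genes of a module are not replicates, so no p-value was computed. Gene by gene, an IFT-B subunit was above a transition zone gene in both libraries in 109 of 121 pairs, above a BBSome gene in 85 of 99, and above an IFT-A subunit in 36 of 55. Transition zone genes were above BBSome genes in 43 of 99 pairs, so these modules overlapped widely.

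Short ciliary genes had the higher levels. The length of a gene in the files is that of its transcripts weighted by their shares, so a short entry with few counts lowers the length and raises the TPM together. The 9 ciliary genes under 1300 bases had a median of 55.8 TPM, and the 35 longer ones 13.3 TPM; among detected protein-coding genes the same split gave 47.2 TPM and 18 TPM. Spearman's rho between level and length was -0.58 over the 44 genes and -0.26 over 12868 detected protein-coding genes, given as descriptions across genes of the same libraries. In IFT-B, 5 of 11 subunits are this short (Ift46, Ift20, Ift22, Ift27 and Ift57), in IFT-A 1 of 5 (Ift43), in the transition zone 2 of 11 (B9d1 and B9d2) and in the BBSome module 1 of 9 (Bbs5). With only the members of 1300 bases or more, IFT-B minus IFT-A was 0.31, IFT-B minus the BBSome 0.74 and IFT-B minus the transition zone 1.20, all with the same sign but well below the values over all members. IFT-A minus the transition zone was 0.89 and IFT-A minus the BBSome 0.43, close to those over all members. Taken by the length of the leading transcript instead, 7 genes were under 1300 bases, with Ift46 at 1317 and Bbs5 at 1468 bases no longer among them, and the medians were 55.8 TPM for these 7 and 13.5 TPM for the other 37. Some genes went against the length trend: Sufu, at 4151 bases, was at 34.2 ± 0.0778 TPM, and Tctn1, at 2059 bases, at 3.33 ± 0.318 TPM.

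**Figure D2:**
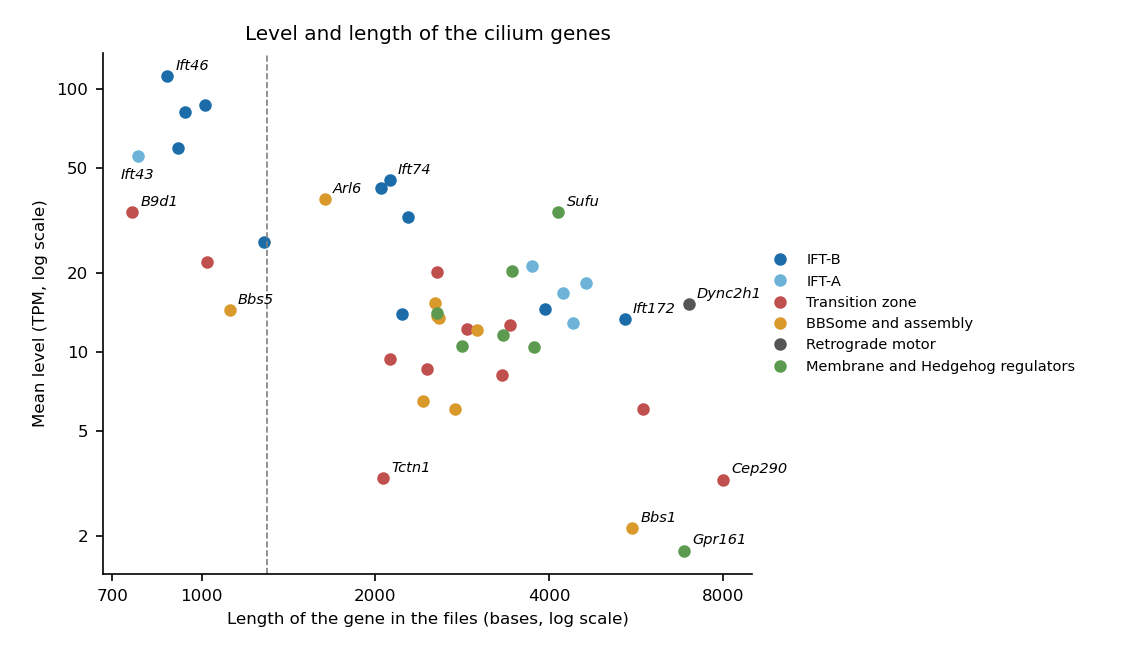
Mean level of the 44 genes (TPM, log scale) against the length of the gene in the files (bases, log scale), coloured by module; the dashed line marks 1300 bases. The 9 genes left of it have a median of 55.8 TPM and the 35 to its right 13.3 TPM, with Sufu above and Tctn1 below the other genes of their lengths.

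The pools agreed closely at the ciliary genes. None of the 44 differed past 1.5-fold in TMM-scaled counts, against 10.8% of all genes with 10 counts in at least 1 library and 1.54% of genes with 100 counts, the class to which all 44 belong. The median log2 ratio of replicate 1 over replicate 2 was -0.00, and the median size of the ratio was 0.0906 for the ciliary genes and 0.0912 for all genes with 100 counts. By exact 95% binomial intervals (Clopper-Pearson), which cover counting error only, the ratio left out 0 in 14 of 44 genes, a share of 31.8% beside 35.1% of all genes with 100 counts. On these measures the ciliary genes differed between the pools about as much as other genes of that depth.

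The genes lowest in replicate 1 relative to replicate 2 were Tctn1, with a log2 ratio of -0.38 (interval -0.78 to -0.00), Bbs4, with -0.28 (interval -0.44 to -0.12), and Ift140, with -0.26 (interval -0.37 to -0.16). Those highest in replicate 1 were Gpr161, with 0.35 (interval 0.07 to 0.64), Mks1, with 0.29 (interval 0.07 to 0.52), and Bbs12, with 0.27 (interval 0.02 to 0.52). Tctn1 and Gpr161 are also among the genes with the fewest counts, and the difference of 1.30-fold at Tctn1 was the largest of the 44. The direction at Mks1 depended on the scale: its counts were higher in replicate 1, 358 in replicate 1 against 311 in replicate 2, but its TPM was lower there, 9.01 against 9.82 in replicate 2. Of the 44 genes, 9 had opposite signs by counts and by TPM, and Mks1 was the only one of them with both ratios beyond 0.1 on the log2 scale. With one library on each side, none of these ratios has a replicate check.

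By module, IFT-B had 6 genes higher and 5 lower in replicate 1, IFT-A 1 and 4, the transition zone 3 and 8, the BBSome 4 and 5, and the membrane and Hedgehog regulators 5 and 2. These signs depend on the scaling. Over all 44 genes, 20 were higher and 24 lower in replicate 1 by TMM, 17 and 27 by deposited TPM, and 7 and 37 by spike-ins; in IFT-B the counts were 3 and 8 by deposited TPM and 1 and 10 by spike-ins. Some markers moved as well. By TMM, all 6 neuronal markers were lower in replicate 1 (median log2 ratio -0.14), as were all 4 of neural crest (-0.35). All 6 of skeletal muscle (0.32) and all 6 of connective tissue (0.22) were higher by TMM, and progenitor markers had a median of -0.04. Signs were mixed in erythroid markers (3 higher and 2 lower in replicate 1), endothelium (3 and 3) and macrophages (2 and 2). The part of tissue make-up in the small ciliary ratios was not tested. Scaling to the spike-ins shifts every gene by the same amount, about -0.20 in the median of all genes. Positive TMM ratios smaller than that, such as 0.11 for Pdgfra of connective tissue and 0.09 for Acta1 of muscle, thereby turn negative.

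**Figure D3:**
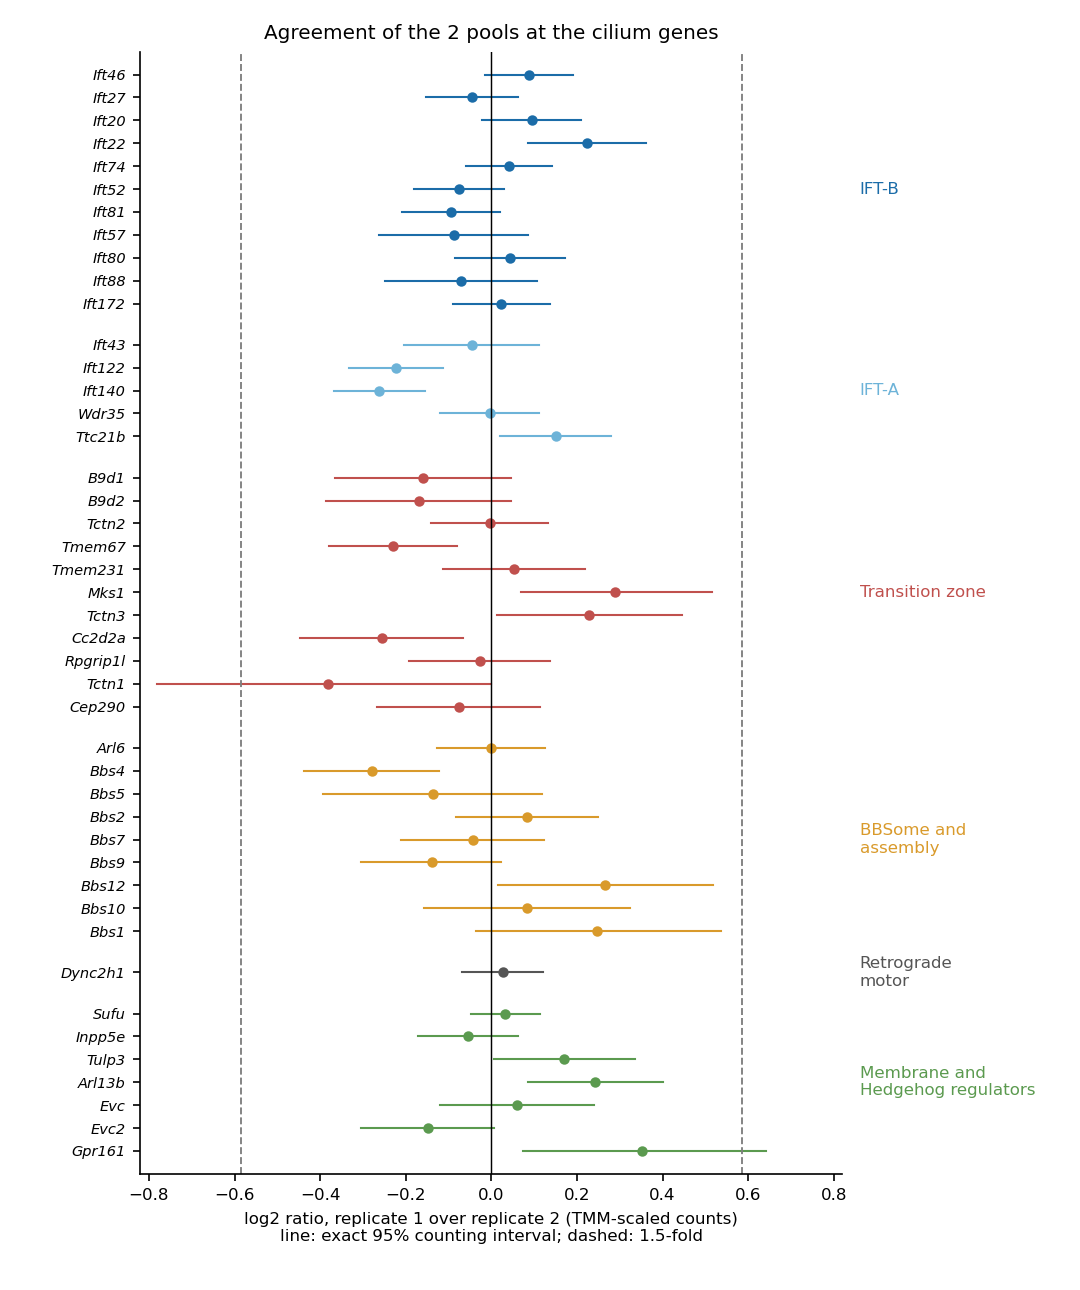
Log2 ratio of replicate 1 over replicate 2 for each of the 44 genes from TMM-scaled expected counts, with exact 95% counting intervals; dashed lines mark 1.5-fold. All points lie between -0.38 (Tctn1) and 0.35 (Gpr161).

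The deposited values also give the share of each annotated transcript in its gene. Of the 44 genes, 10 have 1 annotated transcript and 34 have several. The leading transcript was the same in both libraries in 34 of 34 genes, against 90.1% of protein-coding genes with several transcripts and a mean of at least 1 TPM, and it was of protein-coding type in 33 of 34, against 91.2%. The exception was Tctn2: its leading entry, Tctn2-207 of 2733 bases, is annotated as a processed transcript and made up 86.22% of the gene in replicate 1 and 84.28% in replicate 2, and GENCODE M21 types none of its transcripts in the files as protein-coding. The median leading share was 73.3% over the 34 genes and 71.3% over the background.

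By mean share of the leading transcript, the most divided genes above 10 TPM were Ift57, Bbs9 and Ift20, with Ift122 within the spread of Ift20 (44.9 ± 7.97% and 44.1 ± 4.09%, SD, n = 2). In Ift57, Ift57-203 held 34.37% in replicate 1 and 34.53% in replicate 2, and Ift57-204 held 21.91% and 33.47%. In Bbs9, Bbs9-201 led with 38.19% and 42.30%, while Bbs9-210 held 36.74% and 13.79%. In Ift20, Ift20-203 held 41.17% and 46.95%, the coding transcript Ift20-202 held 39.36% and 34.19%, and a transcript with a retained intron, Ift20-204, held 17.91% and 18.38%. In Ift57 and Bbs9 the leading share thus moved less between the libraries than that of the next transcript.

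Some genes, chosen after their values were seen, carried a sizeable part outside full coding transcripts. Dync2h1 was led by the short coding entry Dync2h1-202, of 2892 bases, with 53.65% of the TPM in replicate 1 and 53.27% in replicate 2, whereas the long entry Dync2h1-204, of 14264 bases, held 23.54% and 28.79% of the TPM but 906.63 and 1087.32 expected counts against 407.44 and 396.73 for Dync2h1-202. Most reads of the heavy chain therefore fell to the long entries although a short one led per length. In Ift46 the entry Ift46-209 held 29.49% and 33.09% of the TPM from only 74.16 and 86.89 expected counts, the entry on which the lead of Ift46 rested. In Ift88, an entry typed for nonsense-mediated decay, Ift88-203, held 25.85% and 31.16%. In Ift140 a processed transcript, Ift140-207, held 35.06% and 30.27%.

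Shares of the leading transcript moved by over 10 points between the libraries in 9 of 34 genes, or 26.5%, against 20.5% of the background. The largest shift was at Bbs7, where Bbs7-203 held 55.33% in replicate 1 and 85.15% in replicate 2 while the gene itself stayed level at 13.35 and 13.58 TPM. In Mks1, Mks1-201 held 82.56% and 60.81%, and a retained-intron entry of 688 bases, Mks1-203, was listed at 0 in replicate 1 and at 32.16% in replicate 2, from 33.40 expected counts. That short entry in replicate 2 goes with the opposite signs of Mks1 by counts and by TPM. In Ift81 the retained-intron entry Ift81-207 held 19.20% in replicate 1 and was listed at 0 in replicate 2. At these counts the split between overlapping transcripts is an estimate, and the files give no error for it.

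**Figure D4:**
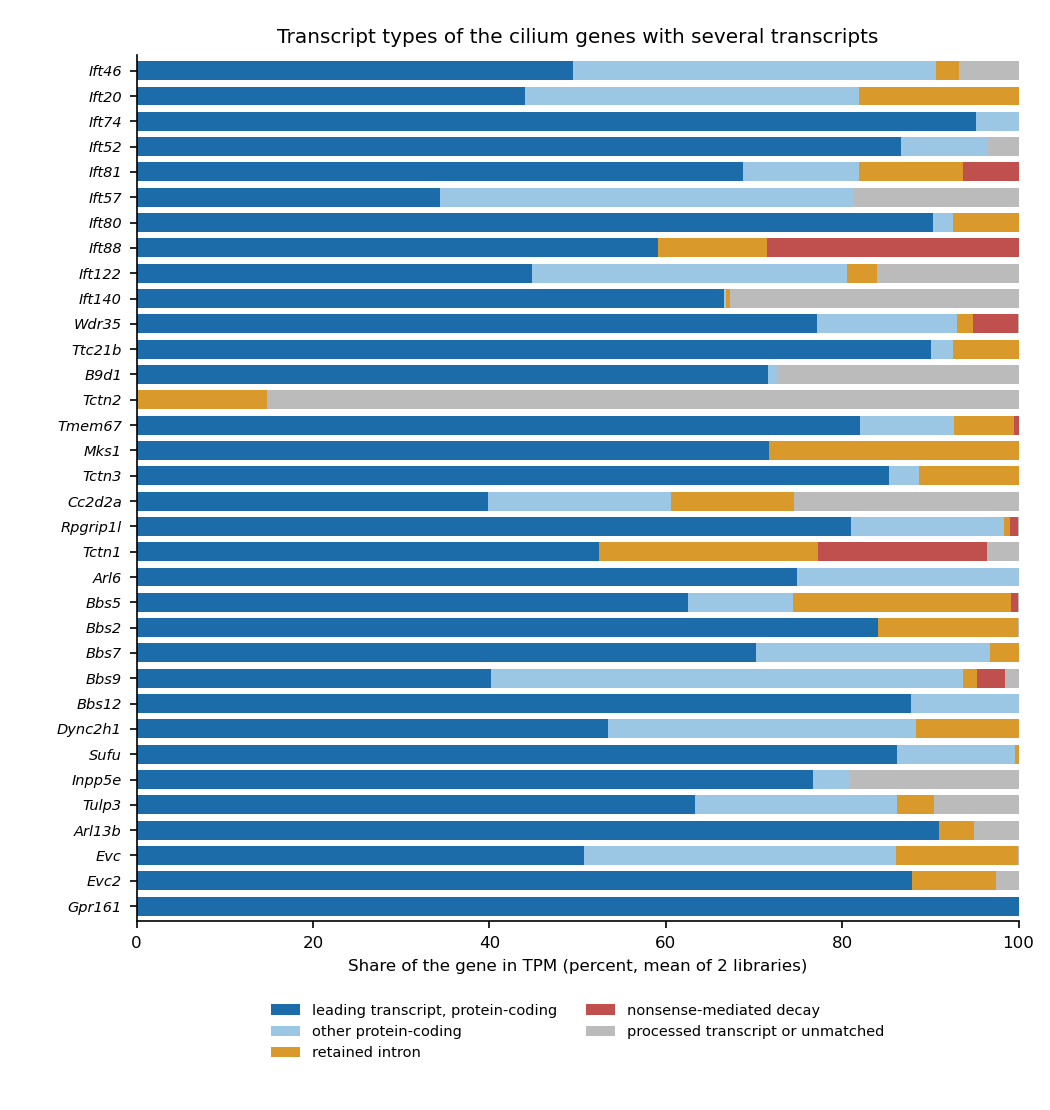
Mean share of each gene's TPM over 2 libraries, in percent, by annotated transcript type for the 34 genes with several transcripts. Tctn2 has no protein-coding entry, and Ift88 has the largest share of nonsense-mediated decay entries, 28.5%.

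Some exons overlap genes on the other strand, and the strand setting of the libraries is not given. The largest overlaps were at Inpp5e, where 20.3% of exon bases lie over Pmpca, and at Tctn1, where 19.0% lie over Hvcn1. Pmpca had 86.87 TPM in replicate 1 and 91.78 TPM in replicate 2, above Inpp5e, and Hvcn1 had 4.87 and 4.59 TPM, above Tctn1, so the levels of Inpp5e and Tctn1 are uncertain by reads from these neighbours. Cep290 shares 7.58% of its exon bases with 4930430F08Rik, which had 9.97 and 8.55 TPM. Ift57 shares 7.86% with the antisense gene Gm15518, which was at only 0.12 and 0.31 TPM. Apart from the pseudogene Gm15481, which lies over 6.50% of the exon bases of Tctn1, the other overlaps were 3.73% or less.

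Many ciliary genes carry an X-box, the site of RFX factors, which are known to drive ciliary genes in animals from worms to mammals. The X-box is an inverted repeat of the half-sites GTTGCC and GGCAAC, which were searched on both strands with 0 to 3 bases between them and at most 2 mismatches in the 12 half-site bases, so that a match and its reverse complement count once. The windows were the RefSeq promoters (GRCm38.p6, 250 bases before to 50 after the start site), of which 40 of the 44 genes had one. The 6 matches with the fewest mismatches, ties going to the gene with the higher level, are shown because they are the closest to the full site; each line gives 30 bases, 5′ to 3′ in the orientation of the gene, with the half-sites in capitals.
Tctn1: gcgctaggctgtgactGTTGCCcgGGCAAC
Ift57: gccctgcgGTTGCCtGGTAACggtggggac
B9d2: aacctgctGTTGCCccAGCAACagtcgggg
Bbs7: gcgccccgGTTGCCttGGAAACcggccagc
Mks1: gcgtctccGTTGCCagGGGAACgaggcacc
Tctn3: tcccagcgGTTGCCaGGTAACgggaaccac

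The Tctn1 window lies at chr5:122264411-122264440 on the minus strand, and the match has no mismatch, with its centre 43 bases after the start site. The others have 1 mismatch each. The Ift57 window lies at chr16:49699226-49699255 on the plus strand and the B9d2 window at chr7:25680788-25680817 on the plus strand. The Bbs7 window lies at chr3:36613489-36613518 on the minus strand, the Mks1 window at chr11:87853183-87853212 on the plus strand and the Tctn3 window at chr19:40612350-40612379 on the minus strand. A match describes letters in a window and shows no binding.

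Each gene was scored by its window with the fewest mismatches. A match with at most 2 mismatches was present in 14 of the 40 genes, or 35.0%, against 7.28% of 27025 genes with a window and 8.91% of the detected protein-coding ones. With at most 1 mismatch there were 7 of 40, or 17.5%, against 1.38% and 1.65%. Transition zone genes had the most, 7 of 10 (Tctn1, Tctn2, Tctn3, Mks1, B9d1, B9d2 and Tmem231). IFT-B had 3 of 9 (Ift57, Ift22 and Ift88), the BBSome 3 of 9 (Bbs1, Bbs4 and Bbs7), IFT-A 1 of 4 (Ift140), and the membrane and Hedgehog regulators 0 of 7. In 11 of the 14 the half-sites lay 2 bases apart, and their centres ran from 134 bases before to 43 bases after the start site. Within this set, the module with the most matches was the one with the lowest median level. The gene with the complete site, Tctn1, was among its lowest genes, but its level is uncertain because of the overlap with Hvcn1. The pairing of many matches with a low median depends on the genes listed. Matches were present in 5 of 10 other transition zone genes with a window, and that list of 12, given further on, had a median of 22.5 ± 1.45 TPM (SD, n = 2).

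**Figure D5:**
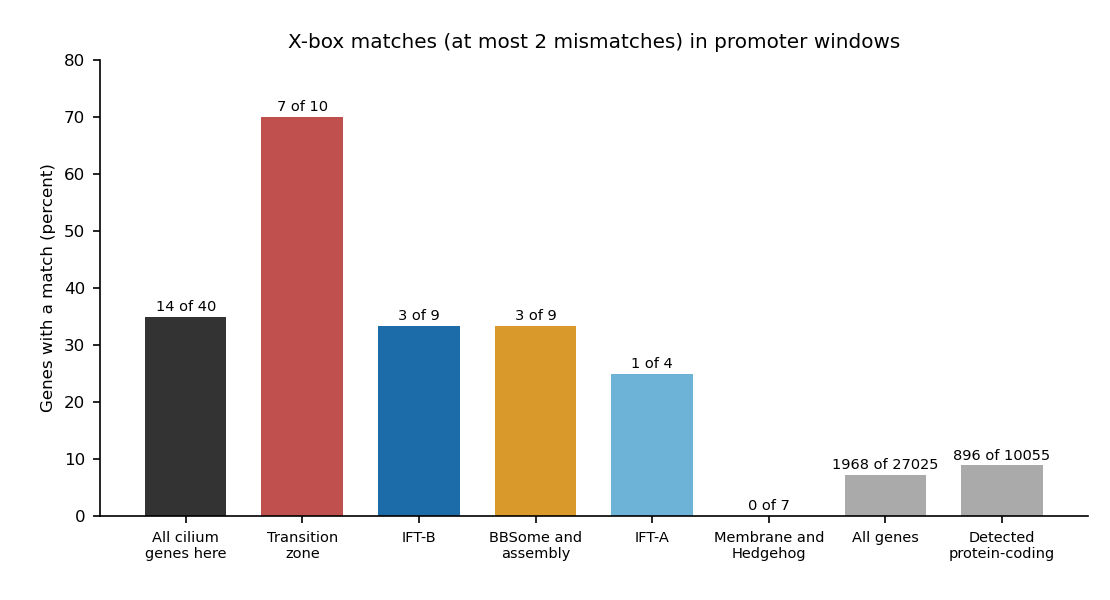
Percent of genes with a promoter window that holds an X-box with at most 2 mismatches, for the ciliary genes, by module, and for all genes and detected protein-coding genes; numbers above the bars are genes with a match of genes with a window. The transition zone has 7 of 10 and the membrane and Hedgehog regulators 0 of 7, beside 7.28% of all genes.

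Start sites close to that of a protein-coding gene on the other strand were also counted. Such a divergent neighbour within 1000 bases upstream was annotated for 9 of 44 ciliary genes, or 20.5%, against 9.89% of detected protein-coding genes. The closest were Tnfaip1, 29 bases from Ift20, Arcn1, 63 bases from Ift46, Dcun1d5, 74 bases from Dync2h1, and Mbd4, 99 bases from Ift122. The other pairs were Tctn3 with Entpd1, Ift80 with Smc4, Cep290 with Tmtc3, Rpgrip1l with Fto and Ift140 with Cramp1l, at up to 297 bases. Levels within a pair could be far apart: Rpgrip1l had 6.33 TPM in replicate 1 and 5.81 TPM in replicate 2, and Fto 91.48 and 89.63 TPM.

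The rest of the ciliary machinery was present as well. Of 16 other IFT and motor genes 14 were detected in both libraries, with a median of 9.08 ± 0.117 TPM (SD, n = 2). The kinesin subunits Kif3a, with 72.58 TPM in replicate 1 and 78.45 TPM in replicate 2, and Kifap3, with 53.50 and 53.98 TPM, led them, followed by the dynein light intermediate chain Dync2li1, with 24.21 and 23.65 TPM. Kif3b, another subunit of that kinesin, was far lower, at 5.96 TPM in replicate 1 and 6.78 TPM in replicate 2. Kif17, an accessory ciliary kinesin, was below 1 TPM in both, at 0.28 and 0.36 TPM. The other IFT-B subunits of that list were all below the 42.2 TPM median of the 11 described here: Hspb11 averaged 22.6 ± 2.77 TPM and Cluap1 18.9 ± 1.10 TPM, and Ttc30a1, Ttc26, Traf3ip1, Ttc30b and Ttc30a2 ran from 9.21 ± 0.608 down to 0.93 ± 0.198 TPM (SD, n = 2 for each; the 3 Ttc30 genes are close copies, so their split is uncertain). All 6 genes of the list of other BBSome genes, of which only Bbip1 and Ttc8 encode subunits, passed 1 TPM in both libraries (median 31.4 ± 1.73 TPM). Their highest were the GTPase gene Rab8a at 83.5 ± 4.33 TPM, Lztfl1 at 37.7 ± 2.64 TPM and Bbip1 at 31.8 ± 2.03 TPM. Bbip1 and Ttc8, at 24.7 ± 1.60 TPM, are further BBSome subunits and lie above the band given for the other subunits. All 12 other transition zone genes also passed 1 TPM in both libraries (median 22.5 ± 1.45 TPM), among which the highest were Iqcb1 at 51.2 ± 2.15 TPM, Tmem216 at 44.3 ± 0.283 TPM and Tmem138 at 36.1 ± 1.11 TPM. By their medians those 2 lists lay above the transition zone and BBSome genes described here and above the other IFT and motor genes, so the medians and the order of modules given above hold for the named genes and not for the structures as a whole. The 7 basal body and docking genes were likewise all present (median 15.3 ± 1.12 TPM), the highest being Odf2 at 59.4 ± 1.73 TPM, Fbf1 at 28.4 ± 1.12 TPM and Sclt1 at 17.4 ± 1.80 TPM.

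Genes of motile cilia, the beating kind, were mostly near 0. Only 5 of 17 measured genes reached 1 TPM in both libraries, and the median was 0.26 ± 0.099 TPM (SD, n = 2), against 44 of 44 and 14.2 ± 0.697 TPM for the ciliary genes above. Gmnc, which starts the multiciliated programme, had no count (0 in each library); with a limit of 3 counts per library, its level is below 0.0433 TPM in replicate 1 and below 0.0419 TPM in replicate 2. Mcidas, which acts with it, had 0.05 and 0 TPM, and the axonemal gene Hydin 0.02 and 0.04 TPM. Foxj1, the factor that drives motile cilia, was above 1 TPM at 1.94 and 2.45 TPM, from 85 and 111 expected counts. The highest were Ccdc40 at 16.1 ± 1.68 TPM, Rsph9 at 8.47 ± 2.22 TPM and Tekt1 at 3.35 ± 0.0283 TPM. In Ccdc40 a processed transcript held 39.88% in replicate 1 and 31.66% in replicate 2, and a retained-intron entry 24.27% and 18.76%. Its protein-coding transcripts had 4.49 and 5.95 TPM, below those of Rsph9, with 6.9 and 10.04 TPM. X-box matches were as frequent in the promoters of these genes, 6 of 14, as in those of the other IFT and motor genes, 6 of 14, while their levels were far lower.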

How the data were processed

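Levels came from the gene and transcript quantifications deposited for 2 libraries of total RNA from E11.5 neural tube. Expected counts and TPM were made by the authors on mm10 with GENCODE M4, per the file descriptions; no source used here names the quantifier. Transcript shares are the deposited percent of the gene's TPM. Deposited TPM include 97 spike-ins, at 13.2% of TPM in replicate 1 and 11.8% in replicate 2, and effective lengths were 99 bases below lengths, so very short entries reach a high TPM from few counts. Whether the replicates were separate dissections beyond their different embryo numbers is not given, so their spread may be partly technical.

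Identifiers were matched without version to GENCODE M21 for symbols, types and coordinates (42462 of 43346 matched; 26248 entries with numeric identifiers were left out). Tctn2 is not typed protein-coding there. The members, modules and lists were chosen with earlier results of these data known. All 44 genes are named, those at the ends of each module or range with values per library. Expected counts were rounded and scaled by TMM in edgeR 4.0.16, with a prior count of 2 and 10 counts in at least 1 library. Genes past 1.5-fold were counted. With 1 library on each side there was no test. Module medians used log2(TPM + 1). The X-box search and the ratios were tested on simulated data. Dnai1, Dnai2 and Cc2d2b were listed but not matched. The alternatives were another TPM estimate, scaling, transcript set, summary, pseudocount, filter, fold and mismatch limit, DESeq2 1.42.0 size factors, and leaving out each library.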

Additional observations from a re-analysis of the deposited data

How the results depend on the processing

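Of 78 alternatives other than leaving out a library, 44 left the value within its spread or limit, 34 moved it and 0 reversed a sign; the cause of the moves was not tested, unless the construction shows it. Rescaling TPM to nuclear protein-coding genes gave module medians of 55.0 (IFT-B), 24.0 (IFT-A), 12.5 (transition zone) and 16.8 TPM (BBSome), which are higher by construction. Means of log2 values gave 37.9, 21.7, 10.2 and 10.8 TPM in that order, and differences of 0.78 (IFT-B minus IFT-A), 1.79 (IFT-B minus transition zone), 1.72 (IFT-B minus BBSome), 0.94 (IFT-A minus BBSome) and -0.072 (transition zone minus BBSome), so the last is near 0 by means. Protein-coding transcripts alone, which set Tctn2 to 0, gave 43 detected genes, medians of 15.6 (IFT-A), 6.71 (transition zone) and 11.1 TPM (BBSome), and differences of 1.33, 2.44, 1.79, 1.11 (IFT-A minus transition zone) and -0.65. IFT-B minus transition zone was 1.98 with posterior mean TPM, 2.05 with rescaled TPM and 2.12 with a pseudocount of 0.1; IFT-B minus BBSome was 1.54 and 1.71 under the first and last of these, and 1.60 with the 6 BBSome subunits alone. Members of 1300 bases or more, an alternative chosen after seeing the data, gave 0.31, 1.20, 0.74 and, for the transition zone minus the BBSome, -0.46. Past the lower fold limit tried lay 2 genes, Tctn1 and Gpr161, against 21.4% of all genes tested. X-box matches were present in 7 genes with at most 1 mismatch and in 29 of 40 with at most 3 (39.3% of all genes with a window). Leaving out a library leaves the value of the other one, which with 2 libraries lies within the SD by construction; IFT-B minus IFT-A was 1.07 or 1.24, and each difference kept its sign in the 1 library left. All members passed the filter of 1 TPM, which therefore changed nothing, and at 5 TPM 40 remained.

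No paired analysis was possible because the study has 1 group and the replicate numbers pair no samples across groups. Depth limits Tctn1 (about 116 counts per library) and the shares of short transcripts most.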

Other observations

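Relatives of the ciliary genes that are not part of the set were measured in the same libraries. The tubby family gene Tulp4 had 103.05 TPM in replicate 1 and 95.77 TPM in replicate 2, above Tulp3 in both. Several processed transcripts held much of that, the largest being Tulp4-212 with 28.26% and 29.25%. Protein-coding transcripts of Tulp4 had 26.97 and 25.59 TPM, and those of Tulp3 12.92 and 11.44 TPM. Rpgrip1, the relative of Rpgrip1l known for its role in photoreceptors, was listed at 74.45 and 78.96 TPM, but 99.53% and 99.28% of it sat in 1 entry typed for nonsense-mediated decay, Rpgrip1-217, and 1057 exon bases of the gene lie over Supt16 on the other strand, which had 60.77 and 57.53 TPM. Dync1h1, the heavy chain of cytoplasmic dynein, had 69.10 and 80.35 TPM, against 15.63 and 14.85 TPM for Dync2h1. Over protein-coding transcripts the levels were closer, 32.47 and 34.61 TPM for Dync1h1 and 13.49 and 13.42 TPM for Dync2h1. Arl13a, the relative of Arl13b, had no count (0 in each library), and the limit of 3 counts per library puts it below 0.105 TPM in replicate 1 and below 0.102 TPM in replicate 2. Ttc21a, the relative of Ttc21b, had 0.26 and 0.18 TPM, and Tulp2 had 0.22 and 0.31 TPM. None of the 8 relatives with a promoter window held an X-box with at most 2 mismatches, against 14 of 40 of the ciliary genes. The share was 7.28% of all genes with a window and 8.91% of detected protein-coding genes, so 8 promoters are too few to set these relatives apart from the background.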
